A study of Mus musculus with 6 samples.

Results

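Genes of 3 vasoactive peptide systems, the angiotensin, endothelin and adrenomedullin systems, were followed through 6 stromal populations sorted from the omentum, the fatty fold of the peritoneum. The members were chosen by name as ligands, converting enzymes and receptors: *Agt*, *Ace*, *Agtr1a* and *Agtr2*, then *Edn1*, *Ednra* and *Ednrb*, then *Adm*, *Calcrl* and *Ramp2*. All 10 were found, each under its own symbol, among 23352 gene symbols. The animals were wild-type C57BL/6 mice for which no treatment is named, and their age and the number pooled are not given in the sources used here. RNA-seq was performed on 1 library per population. P1, P2 and P3 were CD45- CD140a+ CD105+ cells with high, intermediate and low aldehyde dehydrogenase (ALDH) activity, in that order. P4 and P5 were CD45- CD140a+ CD105- cells with intermediate and low activity, and P6 held CD45- CD140a-low cells with ALDH activity. CD140a and CD105 are the proteins of *Pdgfra* and *Eng*, and each gate is a mixture of cells defined only by these stains.

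Expression was given as FPKM, read numbers scaled for transcript length and library size, so that levels can be set side by side between genes. Depth was estimated at 37.0 M to 61.8 M reads per library. Since each population had 1 library, no p-value was computed, and intervals in parentheses after a ratio are 95% intervals for counting error only, which leave out differences between mice and between sorts. As these are bulk samples, a lower level may be fewer expressing cells or less RNA per cell, and the 2 cannot be told apart. *Eng* had 42.6 to 52.4 FPKM in P1 to P3 and at most 0.728 elsewhere, and *Pdgfra* had 117 to 154 FPKM in P1 to P5 and 5.36 in P6, as their gates were drawn. The CD45 gene *Ptprc* had at most 0.755 FPKM. Other cell types differed in their markers between libraries. The summed FPKM of 11 mesothelial genes was 76.2 in P1, 97.7 and 155 in P2 and P3, 1033 and 834 in P4 and P5, and 3241 in P6. The sum over 24 pancreatic acinar genes was 5.41 FPKM in P1, 289 and 30.6 in P2 and P3, 1568 and 182 in P4 and P5, and 2267 in P6. The 10 fibroblast genes summed to 9312 to 14559 FPKM, the 10 adipocyte genes to 158 to 361 and the 10 leukocyte genes to 13.0 to 48.6. *Dcn* was the largest fibroblast term and *Fabp4* the largest adipocyte term in every library, so these sums hide other differences. *Cfd* had 114 FPKM in P6 and at most 0.337 elsewhere, and *Adipoq* 14.7 and at most 0.785. From P1 to P6, *Dpt* had 1634 and 8.70 FPKM but *Col1a1* 1263 and 1735. *Col3a1* was listed at 0 in P2.

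Angiotensinogen, the product of *Agt*, is cut by renin, and the peptide it releases is converted by angiotensin-converting enzyme (ACE) to angiotensin II, which constricts vessels through the type 1 receptor and acts in part against this through the type 2 receptor. ACE also degrades bradykinin, a dilator. Endothelin-1, cut from the *Edn1* product by endothelin-converting enzyme, constricts vessels through the type A receptor and is cleared or leads to dilation through the type B receptor. Adrenomedullin, the product of *Adm*, dilates vessels and holds the barrier of blood and lymph vessels. Its receptor is a complex of CALCRL, a G protein-coupled receptor, with an accessory protein that sets the ligand, and RAMP2 is the one best known for adrenomedullin. In most tissues *Edn1*, *Calcrl* and *Ramp2* are thought of as endothelial genes and the receptors of angiotensin and endothelin as genes of vascular mural cells and fibroblasts.

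Upstream sequence is shown for *Ace*, *Adm* and *Edn1*, which shared their highest level in P1, and for *Agt*, which was highest in P2. Each run holds the 250 bases before the RefSeq start site, 5′ to 3′ on the strand of the gene, in build GRCm38.p6. Capitals mark matches on either strand to any of 5 short motifs: the nuclear receptor half-site AGGTCA, the hypoxia response core ACGTG, the TATA box letters TATAAA, the GC box letters GGGCGG and the AP-1 letters TGANTCA.
Ace, chr11:105967698-105967947, plus strand: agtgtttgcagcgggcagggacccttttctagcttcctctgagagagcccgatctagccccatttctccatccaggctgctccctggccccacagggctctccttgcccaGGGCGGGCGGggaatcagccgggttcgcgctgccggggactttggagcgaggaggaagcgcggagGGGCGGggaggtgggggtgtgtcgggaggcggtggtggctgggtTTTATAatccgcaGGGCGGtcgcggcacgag
Adm, chr7:110627407-110627656, plus strand: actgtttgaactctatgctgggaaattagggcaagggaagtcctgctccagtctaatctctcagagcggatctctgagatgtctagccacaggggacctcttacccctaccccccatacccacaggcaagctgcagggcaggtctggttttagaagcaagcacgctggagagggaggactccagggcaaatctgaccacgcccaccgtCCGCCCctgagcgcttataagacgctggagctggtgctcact
Edn1, chr13:42301226-42301475, plus strand: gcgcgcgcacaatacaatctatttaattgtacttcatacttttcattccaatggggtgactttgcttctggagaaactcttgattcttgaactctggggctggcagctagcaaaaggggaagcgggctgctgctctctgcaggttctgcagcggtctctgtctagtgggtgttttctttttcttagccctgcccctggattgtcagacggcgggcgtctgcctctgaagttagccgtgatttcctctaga
Agt, chr8:124569707-124569956, minus strand: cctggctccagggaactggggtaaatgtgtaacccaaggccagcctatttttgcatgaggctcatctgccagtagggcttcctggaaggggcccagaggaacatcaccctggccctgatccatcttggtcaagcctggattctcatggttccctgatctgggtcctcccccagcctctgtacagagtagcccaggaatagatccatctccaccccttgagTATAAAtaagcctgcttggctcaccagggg

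The *Ace* window held 4 GC box matches, of which the first pair overlap, and 1 TATA match. The *Adm* window held 1 GC box match, the *Agt* window 1 TATA match, and the *Edn1* window no match to these letters. Over 32851 upstream windows of this length in the RefSeq table, 32.7% held the GC box letters, 12.4% the TATA letters, 14.0% the half-site, 16.6% the hypoxia core and 6.75% the AP-1 letters. No half-site, hypoxia core or AP-1 match lay in any of the 4 windows shown. *Ace* has a second RefSeq start at an internal promoter, known for the testis form of the enzyme, whose window had 1 half-site match. The deposited values were summed per gene and do not separate the forms.

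Gene positions are those of GENCODE M21, on build GRCm38 (mm10), the build named for the files. *Ace*, on chromosome 11 from 105967945 to 105989964, had 345 FPKM in P1, 140.0 and 95.9 in P2 and P3, 139 and 27.8 in P4 and P5, and 3.28 in P6. In P1 it was the 202nd highest of all gene symbols, and in P6 the 9961st. P1 stood above every other population, P2 and P4 lay together below it, and P5 and P6 were far lower. The ratio of P1 to P2 was 2.46 (2.42 to 2.50), and that of P1 to P6 was 105 (93.2 to 119). P2 and P4 could not be separated by counting error (ratio 1.004, 0.984 to 1.03). Among members with a value in every library, *Ace* had the widest range between populations.

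*Agt*, on chromosome 8 from 124556534 to 124569706, had a different order. It had 46.8 FPKM in P1, 69.8 and 55.0 in P2 and P3, 16.9 and 11.2 in P4 and P5, and 9.49 in P6. All 3 CD105+ populations lay above all 3 others. P1, the highest for *Ace*, was the lowest of the CD105+ populations for *Agt*, at 0.671 times P2 (0.646 to 0.697).

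*Agtr1a*, the type 1 angiotensin receptor gene, lies on chromosome 13 from 30336441 to 30382867. It had 14.2 FPKM in P1, 6.28 and 6.55 in P2 and P3, 6.27 and 1.38 in P4 and P5, and 5.07 in P6. P2, P3 and P4 did not differ beyond counting error, P1 was at least 2-fold higher than each, and P5 was the lowest. The ratio of P1 to P3, the next highest, was 2.17, and its interval of 1.99 to 2.36 reached below 2. *Agtr1b*, its close paralog, had at most 0.0250 FPKM, so few reads were assigned to it.

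*Agtr2*, the type 2 receptor gene on the X chromosome from 21484544 to 21489164, was low. It had 1.72 FPKM in P1, 0.503 and 0.481 in P2 and P3, 0.664 in P4 and 0.176 in P5, and it was listed at 0 in P6. P1 was the only population to reach 1 FPKM, at 2.59 times P4 (2.09 to 3.24). The 0 in P6 need not mean that no RNA was there, because genes as abundant as *Col3a1* in P2 and *Fn1* in P1 were also listed at 0 in 1 library. *Agtr1a* exceeded *Agtr2* by 7.87 times in P5 to 13.6 times in P3 among the 5 populations with a value for both.

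*Edn1*, on chromosome 13 from 42301476 to 42307990, had 11.2 FPKM in P1, 3.50 and 2.44 in P2 and P3, 4.79 and 1.12 in P4 and P5, and 2.79 in P6. P1 was highest and P5 lowest, with P4 above P2 at this gene. The ratio of P4 to P2 was 1.37 (1.20 to 1.56), and P6 and P3 did not differ beyond counting error. P1 over P5 was 9.93 (8.29 to 11.9), a range narrower than those of *Ace* and *Adm*, and P6 had 24.9% of the level of P1.

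*Ednra*, the type A endothelin receptor gene on chromosome 8 from 77663031 to 77724464, had 2.59 FPKM in P1, 2.18 and 2.53 in P2 and P3, 1.01 and 0.432 in P4 and P5, and 3.16 in P6. It was the only member of at least 1 FPKM with its highest value in P6, at 1.22 times P1 (1.06 to 1.40). P1 and P3 did not differ beyond counting error, while P4 and P5 were lower than all others. *Ednrb*, the type B receptor gene on chromosome 14 from 103814625 to 103844402, had 0.203 FPKM in P1, 0.394 and 0.304 in P2 and P3, 0.237 and 0.170 in P4 and P5, and 0.428 in P6. With 26.0 to 60.1 estimated reads per library, no pair of neighbours in its order was separated by counting error, and it was in no comparison. Markers of vascular mural cells, 12 genes, summed to 122 FPKM in P1, 267 and 374 in P2 and P3, 238 and 376 in P4 and P5, and 133 in P6. *Des* was the largest term in P1 to P6. From P3 to P5, *Pdgfrb* went from 70.0 to 23.7 FPKM and *Notch3* from 5.84 to 1.02, lower in P5 as *Ednra* was. Other mural genes were higher in P5, with *Myh11* at 35.1 and 91.8, *Acta2* at 4.32 and 10.4, and *Kcnj8* at 19.3 and 29.9. In P6, where *Ednra* was highest, the mural genes were split. *Pdgfrb*, *Notch3*, *Des* and *Abcc9* had their lowest values there, at 8.74, 0.258, 37.1 and 4.70 FPKM. *Acta2*, *Tagln*, *Mcam*, *Cspg4* and *Cnn1* had their highest, at 35.0, 18.5, 1.83, 1.09 and 0.363 FPKM. The part of mural cells in the receptor levels was not tested.

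*Adm*, on chromosome 7 from 110627661 to 110629820, had 259 FPKM in P1, 105 and 93.2 in P2 and P3, 104 and 25.0 in P4 and P5, and 2.66 in P6. Its order of populations was that of *Ace*. P1 over P2 was 2.47 (2.40 to 2.54), P2 and P4 did not differ beyond counting error, and P1 over P6 was 97.6 (81.3 to 118). In P1 *Adm* ranked 253rd of all gene symbols.

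*Calcrl*, on chromosome 2 from 84330626 to 84425411, had 4.43 FPKM in P1, 7.50 and 9.85 in P2 and P3, 6.24 and 5.69 in P4 and P5, and 2.09 in P6. Among the CD140a+ populations P1, with the most *Adm*, had the least *Calcrl*, at 0.450 times P3 (0.419 to 0.482). *Ramp2*, on chromosome 11 from 101246028 to 101259546, had 81.0 FPKM in P1, 119 and 117 in P2 and P3, 93.5 and 105 in P4 and P5, and 15.4 in P6. P1 was again the lowest of the CD140a+ populations, at 0.678 times P2 (0.653 to 0.705), and P6 was lower still. The annotated exons of *Ramp2* share 1103 bases with *Vps25* on the same strand. *Vps25* had 33.9 to 43.1 FPKM in the 6 libraries and did not follow *Ramp2* in P6.

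Endothelial markers were mostly low where these genes were measured. *Pecam1* had at most 0.992 FPKM and *Cdh5* at most 0.343 in any library. The 14 endothelial genes summed to 16.98 FPKM in P2 and 119 in P6, with 2 to 4 of them at 1 FPKM or more, chiefly *Tek*, *Plvap*, *Esam* and *Kdr*. *Erg* was listed at 0 in P6 and *Cldn5* in P4. In P6 the sum was mostly *Esam* at 62.0 FPKM and *Kdr* at 46.9, with *Tek* at 0.224, and in P1 it was mostly *Tek* at 22.7. The part of endothelial cells in the levels of *Edn1*, *Calcrl* and *Ramp2* was not tested. The 6 lymphatic genes summed to 1.24 to 2.29 FPKM, with *Lyve1* at 0.645 to 1.85 and *Prox1* listed at 0 in P6.

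**Figure D1:**
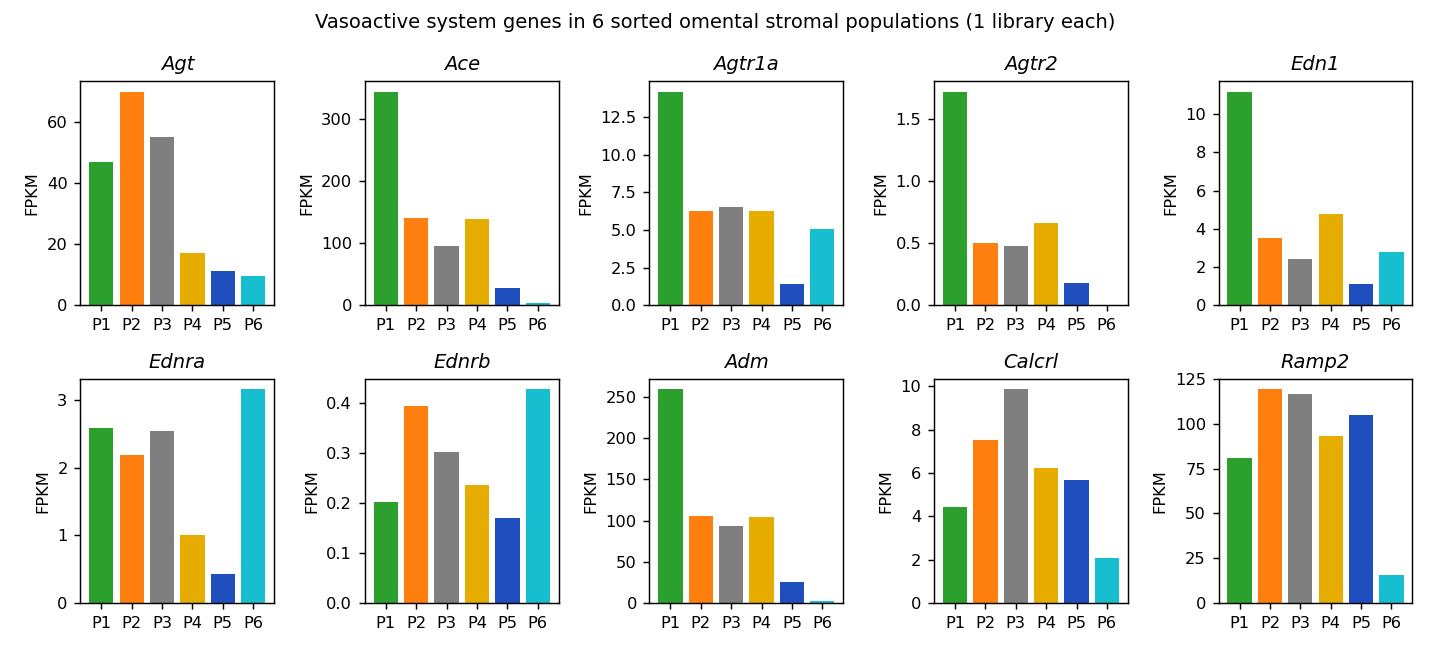
FPKM (vertical axis, from 0, with its own scale in each panel) of the 10 members in P1 to P6, 1 bar per library and therefore without error bars. *Ace*, *Adm*, *Agtr1a*, *Agtr2* and *Edn1* are tallest in P1, *Agt* is tall in P1 to P3, and *Calcrl* and *Ramp2* are lowest in P6.

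Comparisons were then made along the gates. A gene was counted as different when its FPKM after adding 0.1 differed by at least 2-fold, provided that it had at least 1 FPKM in a population compared. The same count over all genes gives the background. The median log2 ratio of the members measured was 1.16 for P1 over P2, 0.10 for P2 over P3, 1.53 for P4 over P5, 0.14 for P2 over P4 and 1.84 for P3 over P5, and that of all genes lay between -0.09 and -0.03. Comparisons that share a library, such as P1 with P2 and P2 with P4, are not independent of each other.

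P1 was compared with P2 to ask how high and intermediate ALDH activity differ among CD105+ cells. *Ace*, *Agtr1a*, *Agtr2*, *Edn1* and *Adm* were at least 2-fold higher in P1, 5 of the 9 members measured, against 0.957% of 11803 genes. Because members were chosen with earlier results of these data known, neither this count nor those of the other comparisons is independent evidence. *Edn1* had the largest ratio of those above 1 FPKM in both, 3.195 (2.86 to 3.59), and *Agtr1a* the smallest of the 5, 2.26 (2.07 to 2.47). *Agtr2* entered this comparison only through its level in P1, and with a pseudocount of 1 it was under 2-fold. No member was at least 2-fold lower, against 4.23% of genes, although *Agt*, *Calcrl* and *Ramp2* lay at 0.671, 0.591 and 0.678 times P2. The direction therefore differed between the enzyme, the angiotensin receptors and the released peptides *Edn1* and *Adm* on one side and *Agt* and the adrenomedullin receptor genes on the other.

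Against each of the other five populations, the same 5 members were at least 2-fold higher in P1, where 0.395% of 12904 genes were. *Agtr2* again passed the minimum only through P1, the population where it was high, and was again under 2-fold with a pseudocount of 1. The authors picked genes for P1 by a 2-fold rule over all other populations on these libraries, naming *Ace*, as *Cd143*, and *Adm* among them. This count is therefore no independent evidence. Ratios of P1 to the next highest population lay close together, at 2.46 for *Ace*, 2.17 for *Agtr1a*, 2.33 for *Edn1* and 2.47 for *Adm*. No member was at least 2-fold lower in P1 than everywhere else, against 1.82% of genes.

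Between P2 and P3, intermediate and low ALDH among CD105+ cells, none of the 8 members measured differed by 2-fold. The background was 1.09% of 11980 genes higher in P2 and 2.56% lower. The largest ratio was that of *Ace*, 1.46 (1.43 to 1.49), followed by *Edn1* at 1.44 (1.23 to 1.67), and *Adm* was at 1.13 (1.09 to 1.16). *Calcrl* went the other way, at 0.761 (0.719 to 0.805). *Aldh1a2* itself, which encodes an aldehyde dehydrogenase that makes retinoic acid, had 78.8 FPKM in P2 and 134 in P3. It had 469 FPKM in P1, 285 and 145 in P4 and P5, and 209 in P6. The order of the ALDH gates was therefore not the order of this transcript.

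The same step of the ALDH gates, intermediate over low, gave larger differences among CD105- cells. *Aldh1a2* was higher in P4 than in P5, unlike in P2 and P3. In P4 over P5, *Ace* was at 5.02 (4.84 to 5.20), *Agtr1a* at 4.54 (3.83 to 5.38), *Edn1* at 4.26 (3.51 to 5.17) and *Adm* at 4.16 (3.96 to 4.39). With *Ednra* at 2.33 (1.82 to 3.03), 5 of 8 members were at least 2-fold higher in P4, against 3.93% of 12022 genes. *Ednra*, at 1.01 FPKM in P4, lay at the minimum. Its log2 ratio after the pseudocount was 1.05 as deposited, and 1.08 by median of ratios and 1.12 after division by *Gapdh*, where P4 was under 1 FPKM and the gene was no longer counted, and 0.94, under 2-fold, by quantile normalization. None was 2-fold lower, against 1.44%. *Calcrl* and *Ramp2* differed by little, at 1.10 (1.03 to 1.18) and 0.889 (0.857 to 0.922). The summed acinar genes were also higher in P4 than in P5, and the mesothelial sums were 1033 and 834 FPKM. Whether either had a part in these ratios was not tested.

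CD105+ and CD105- cells were compared at matched ALDH gates. The match was of ALDH activity, while the *Aldh1a2* transcript had 78.8 FPKM in P2 and 285 in P4. At intermediate activity, P2 over P4, *Agt* was at 4.13 (3.91 to 4.36) and *Ednra* at 2.17 (1.83 to 2.57), which made 2 of 8 members higher in P2, against 4.90% of 12181 genes. No member was 2-fold lower, against 7.63%. *Ace*, *Adm* and *Agtr1a* had ratios of 1.004, 1.01 and 1.001, and all of their intervals spanned 1. Summed acinar genes had 289 FPKM in P2 and 1568 in P4, and mesothelial genes 97.7 and 1033. Whether either had a part in the ratios of this comparison was not tested.

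At low activity, P3 over P5, the ratio of *Agt* was 4.90 (4.604 to 5.23), close to that at intermediate activity. Those of *Ednra*, *Agtr1a*, *Adm*, *Ace*, *Edn1* and *Calcrl* were larger than in P2 over P4, and that of *Ramp2* was smaller. *Ednra* was at 5.86 (4.71 to 7.45), *Agtr1a* at 4.74 (4.01 to 5.61), *Adm* at 3.74 (3.55 to 3.94), *Ace* at 3.45 (3.33 to 3.58) and *Edn1* at 2.17 (1.76 to 2.67). Thus 6 of 8 members were at least 2-fold higher in P3, against 7.33% of 12152 genes. *Ednra*, at 0.432 FPKM in P5, passed the minimum only through P3, where it was high. None was lower by as much, against 6.29%. *Calcrl* was at 1.73 (1.63 to 1.84), and *Ramp2* at 1.11 (1.07 to 1.15) beside 1.28 (1.23 to 1.32) for P2 over P4. Among members measured, *Agt* and *Ednra* were at least 2-fold higher in CD105+ cells at both ALDH levels, and *Ace*, *Agtr1a*, *Edn1* and *Adm* at the low level. With a pseudocount of 1, *Ednra* at intermediate activity and *Edn1* at low activity were under 2-fold.

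**Figure D2:**
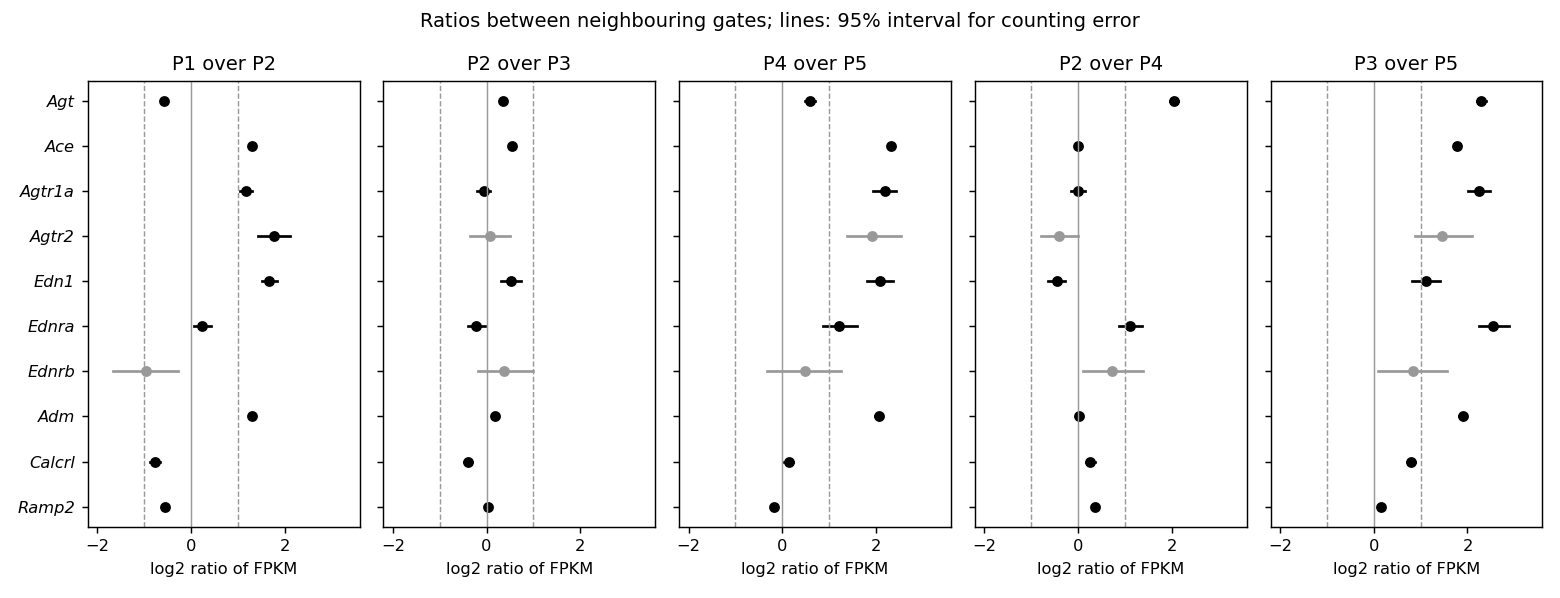
log2 ratio of FPKM (horizontal axis) for each member in 5 comparisons of neighbouring gates, with points for ratios, lines for 95% intervals of counting error, dashed lines at 2-fold, and members below 1 FPKM in both populations in grey. *Agt* lies far to the right in both comparisons across CD105, while *Ace*, *Agtr1a* and *Adm* lie at 0 for P2 over P4 and right of the dashed line for P4 over P5.

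P6, the CD140a-low population, was compared with each of the CD140a+ populations. *Ace*, *Adm*, *Ramp2* and *Calcrl* were at least 2-fold lower in P6 than in every other population. *Agtr2* was counted with them, although it was listed at 0 in P6 and passed the minimum only through P1. Its next lowest value was 0.176 FPKM, in P5. With *Agtr2* these were 5 of 9 members, against 4.63% of 12904 genes. With a pseudocount of 1, *Calcrl* and *Agtr2* were not among them. Compared with P5, the next lowest for *Ace* and *Adm*, P6 was lower by 8.47 times (7.48 to 9.62) for *Ace* and 9.39 times (7.78 to 11.4) for *Adm*. For *Ramp2* the next lowest was P1, which had 5.26 times the level of P6 (4.81 to 5.75), and for *Calcrl* it was also P1, at 2.12 times (1.88 to 2.39). No member was at least 2-fold higher in P6 than everywhere else, against 6.25% of genes. *Agtr1a*, *Edn1* and *Ednra* were higher in P6 than in P5, by 3.67 (3.05 to 4.42), 2.48 (1.98 to 3.10) and 7.30 times (5.82 to 9.30). The mesothelial genes were at their highest sum in P6, with *Upk3b* at 1140 FPKM, and the part of other cells in these values was not tested.

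Ratios between genes within a library were set side by side for some pairs, and none was constant over the populations. The level of *Ace* over that of *Adm* was 1.33 in P1, 1.33 and 1.03 in P2 and P3, 1.34 and 1.11 in P4 and P5, and 1.23 in P6, while the level of *Ace* spanned 105-fold and that of *Adm* 97.6-fold. *Adm* over *Ramp2*, ligand over receptor partner, was 3.203 in P1, 0.880 and 0.7997 in P2 and P3, 1.11 and 0.237 in P4 and P5, and 0.173 in P6. *Ramp2* exceeded *Calcrl* in every library, by 7.37 times in P6 to 18.5 times in P5. *Edn1* over *Ednra* was 4.32 in P1, 1.60 and 0.961 in P2 and P3, 4.76 and 2.60 in P4 and P5, and 0.883 in P6, so the receptor transcript was the more abundant of the pair in P3 and P6. *Agt* over *Ace*, substrate precursor over enzyme, was 0.136 in P1, 0.498 and 0.574 in P2 and P3, 0.121 and 0.404 in P4 and P5, and 2.89 in P6.

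**Figure D3:**
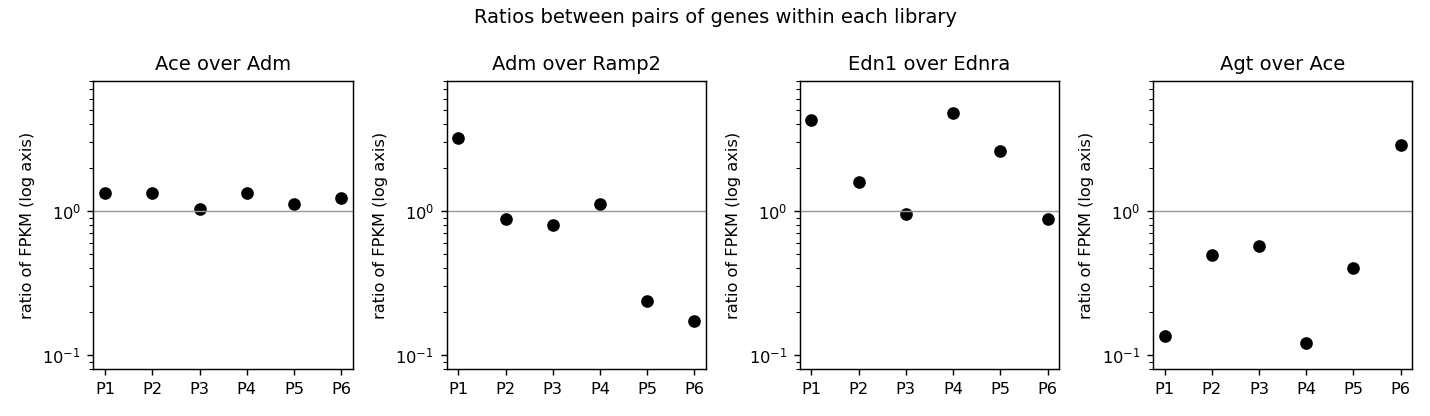
Ratio of the FPKM of 2 genes within each library (vertical axis, log scale, line at 1) for P1 to P6, 1 point per library. *Ace* over *Adm* stays between 1.03 and 1.34, *Adm* over *Ramp2* is highest in P1, and *Agt* over *Ace* exceeds 1 only in P6.

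Other genes of the angiotensin system were taken from a list of 21, of which 9 reached 5 FPKM in some population. Renin itself was low. *Ren1* had 1.12 FPKM in P1, 1.95 in P2 and at most 0.628 in the rest, *Ren2* had at most 0.0304, and the 2 copies share sequence, so that their reads are uncertain. *Enpep*, which encodes the aminopeptidase that shortens angiotensin II, had 50.3 FPKM in P1, 49.3 and 50.6 in P2 and P3, 40.4 and 41.0 in P4 and P5, and 4.34 in P6. It therefore differed little among CD140a+ cells and was lower in P6. *Anpep*, the next aminopeptidase of the chain, had 73.0 FPKM in P1, 56.0 and 37.2 in P2 and P3, 30.2 and 11.8 in P4 and P5, and 17.7 in P6. It shared the high P1 and low P5 of *Ace*, but P1 over P2 was only 1.30 (1.27 to 1.34).

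*Kng2*, a kininogen gene, had 4.13 FPKM in P1, 1.18 and 1.11 in P2 and P3, 0.671 and 0.0803 in P4 and P5, and 0.278 in P6. It was the 1 gene of 13 measured on the list at least 2-fold above every other population in P1, against 0.395% of all genes. *Ren1*, *Ren2* and *Kng2* never reached 5 FPKM and were chosen after their values were seen. The remaining genes of at least 5 FPKM, *Agtrap*, *Atp6ap2*, *Lnpep*, *Prcp*, *Prep*, *Thop1* and *Nln*, lay between 4.97 and 31.0 FPKM in all libraries, and none was called in any comparison. Of 12 listed genes measured between P1 and P2, 1 was higher and none lower, against 0.957% and 4.23% of all genes.

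*Ece1*, which encodes the enzyme that releases endothelin-1, was the 1 gene of 6 on the endothelin list to reach 5 FPKM. It had 54.5 FPKM in P1, 47.5 and 36.6 in P2 and P3, 34.5 and 20.4 in P4 and P5, and 13.0 in P6. Each step was less than 2-fold, and P1 was 1.15 times P2 (1.12 to 1.18). *Edn2* and *Edn3*, the other endothelin genes, stayed at or below 0.223 FPKM.

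On the adrenomedullin list of 11 genes, 4 reached 5 FPKM. *Ackr3*, listed as *Cxcr7*, encodes an atypical receptor that binds and removes CXCL12 and also adrenomedullin. It had 194 FPKM in P1, 86.2 and 46.9 in P2 and P3, 87.3 and 16.5 in P4 and P5, and 60.8 in P6. P1 was 2.25 times P2 (2.21 to 2.29) and P2 and P4 did not differ beyond counting error, as for *Ace* and *Adm*, but P6 was 3.68 times P5 and not lower. *Pam*, whose enzyme amidates the end of adrenomedullin, had 109.8 to 119 FPKM in P1 to P5 and 149.7 in P6, and thus did not follow *Adm*. *Gpr182*, another atypical receptor gene, had 0.639 FPKM in P1, 3.57 and 7.07 in P2 and P3, 2.71 and 6.20 in P4 and P5, and 0.362 in P6. Its highest values lay at low ALDH activity. *Crcp*, the last of the 4, had 6.13 to 8.05 FPKM and was called in no comparison.

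The accessory protein genes differed. *Ramp1*, whose product turns CALCRL into the receptor for calcitonin gene-related peptide, had 0.862 FPKM in P1, 3.72 and 2.60 in P2 and P3, 0.392 and 0.682 in P4 and P5, and 0.291 in P6. *Ramp3* stayed at or below 0.371 FPKM. These 2 genes were below 5 FPKM and named after their values were seen. *Ramp2* was thus the most abundant of the accessory genes in every library. Of 5 listed genes measured between P1 and P2, *Ackr3* was higher and *Ramp1* and *Gpr182* were lower, against 0.957% and 4.23% of all genes. *Ramp1* and *Gpr182* passed the minimum there only through P2, where they were high.

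The other comparisons of these lists are read beside the shares of all genes given above for each. For P4 over P5, *Anpep* was higher among 10 angiotensin genes measured, and *Ackr3* was higher and *Calca* and *Gpr182* lower among 5 adrenomedullin genes, against 3.93% of all genes higher and 1.44% lower. For P2 over P4, *Ren1* and *Bdkrb1* were higher among 12 angiotensin genes and *Ramp1* among 5 adrenomedullin genes, with none lower, against 4.90% and 7.63% of all genes. For P3 over P5, *Anpep* and *Kng2* were higher among 11, and *Ramp1* and *Ackr3* among 6, with none lower, against 7.33% and 6.29% of all genes. In these 3 comparisons *Calca*, *Ren1*, *Bdkrb1*, *Ramp1* and *Kng2* passed the minimum only through the population where they were high. The 2 endothelin genes measured, *Ece1* and *Ece2*, were in no comparison 2-fold apart. Median log2 ratios of P1 over P2 were -0.07 for the angiotensin list, 0.06 for the endothelin list and -0.23 for the adrenomedullin list, beside -0.05 for all genes.

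Among 19 genes of other vasoactive systems, 5 reached 5 FPKM. *Apln*, which encodes apelin, a dilator peptide, had 24.4 FPKM in P1, 49.1 and 79.9 in P2 and P3, 64.1 and 134 in P4 and P5, and 6.32 in P6. Among CD140a+ cells it ran opposite to *Adm*, with P5 highest and P1 lowest, and P5 was 5.49 times P1 (5.31 to 5.68). Its receptor gene *Aplnr* stayed at or below 0.153 FPKM. *Avpr1a*, a vasopressin receptor gene, had 31.1 FPKM in P1, 48.9 and 42.3 in P2 and P3, 13.5 and 8.78 in P4 and P5, and 0.208 in P6, and like *Agt* was higher in the CD105+ populations, at 3.62 (3.44 to 3.80) for P2 over P4. Of the natriuretic peptide receptor genes, *Npr1* had 86.9 to 109 FPKM and *Npr2* 19.7 to 33.3, while *Npr3*, named after its values were seen, ranged from 0.237 in P6 to 2.28 in P1. *Gucy1a3*, a subunit of the nitric oxide receptor, was highest in P6 at 26.4 FPKM and lowest in P1 at 0.269. Nitric oxide synthase genes were at or below 0.165 FPKM. Of 8 genes of this list measured between P1 and P2, none was higher and 4 were lower, *Apln*, *Nppc*, *Gucy1b3* and *Vipr2*. Over all genes, 0.957% were higher and 4.23% lower. *Nppc*, *Gucy1b3* and *Vipr2*, at 0.423, 0.271 and 0.153 FPKM in P1, passed the minimum only through P2, where they were high. For P2 over P4, 4 of 9 were higher, *Avpr1a*, *Npr3*, *Gucy1b3* and *Vipr2*, and *Gucy1a3* was lower, against 4.90% and 7.63% of all genes. Of these only *Avpr1a* had at least 1 FPKM in both populations.

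**Figure D4:**
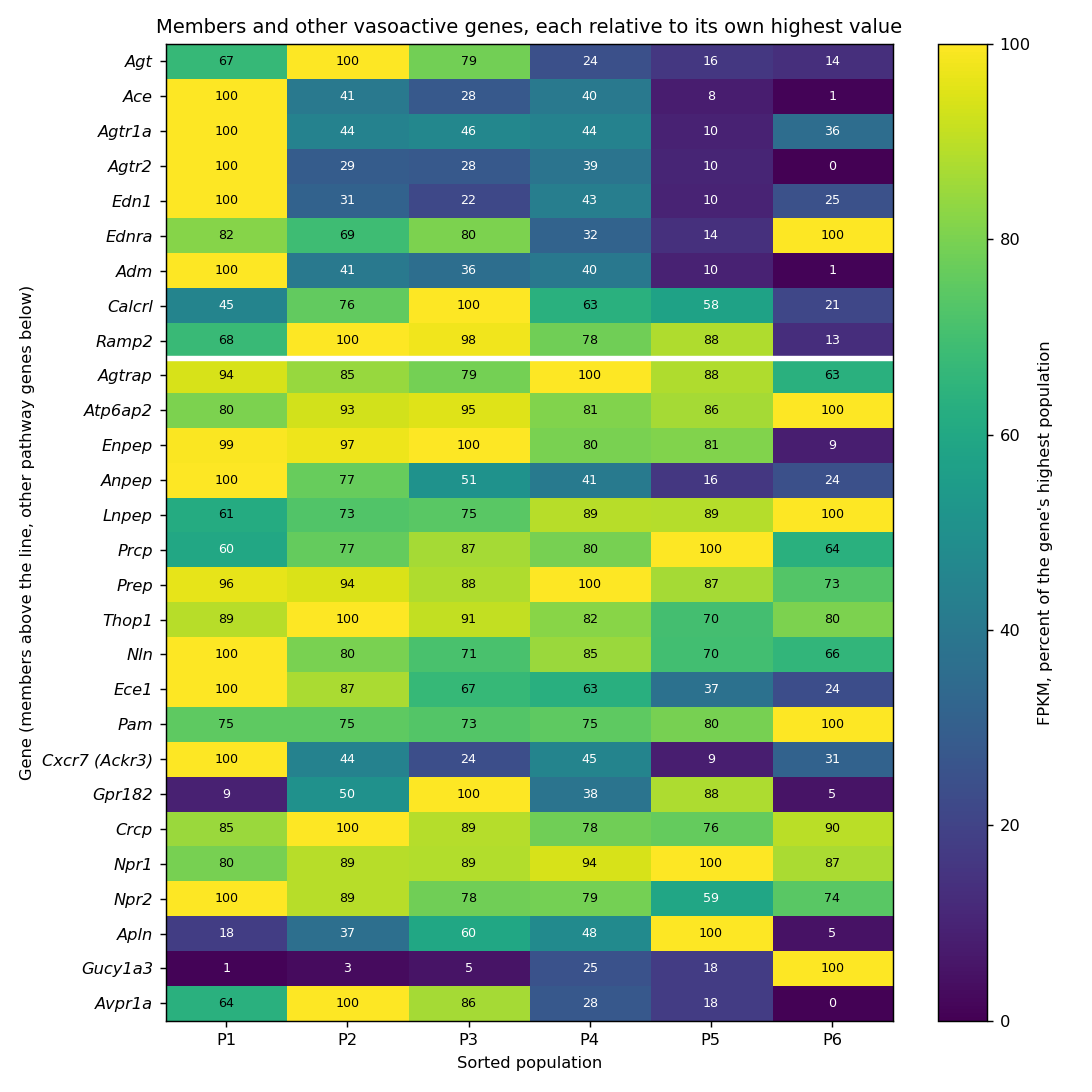
FPKM of each gene in P1 to P6 as a percent of its own highest population (colour and printed number), for 9 members above the white line and, below it, for the 19 genes of at least 5 FPKM on the lists of the same and other vasoactive systems. *Ednrb*, below 1 FPKM throughout, is left out. *Cxcr7* (*Ackr3*) repeats the high P1 and low P5 of *Ace* and *Adm*, and *Apln* is brightest in P5.

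G proteins and effectors that these receptors use made up a list of 18 genes. Of 16 measured between P1 and P2, none was at least 2-fold different, against 0.957% of all genes higher and 4.23% lower. *Gnaq* and *Gna11*, the G protein genes through which angiotensin and endothelin receptors release calcium, had 11.9 to 17.9 and 28.6 to 32.1 FPKM. *Gnas*, through which the adrenomedullin receptor raises cyclic AMP, had 386 to 628 FPKM, with P1 highest. *Plcb4*, a phospholipase of the Gq pathway, had 6.67 FPKM in P1, 4.18 and 3.07 in P2 and P3, 3.004 and 0.876 in P4 and P5, and 0.658 in P6. *Rgs2*, which shortens Gq signals, ran the other way among CD140a+ cells, with 2.95 FPKM in P1, 4.85 and 9.47 in P2 and P3, 5.78 and 14.3 in P4 and P5, and 1.59 in P6. P4 was 0.406 times P5 (0.376 to 0.437) for *Rgs2* and 3.43 times P5 (2.99 to 3.95) for *Plcb4*. *Itpr3*, a calcium release channel, had 2.74 to 3.92 FPKM in P1 to P3 and 20.3 to 27.3 in P4 to P6. The other genes of at least 5 FPKM were *Gna12*, *Gna13*, *Gnai2*, *Plcb3*, *Itpr1*, *Itpr2*, *Rgs3*, *Arrb1* and *Arrb2*. Of these, *Rgs3* and *Arrb1* were at least 2-fold lower in P6 than everywhere else, against 4.63% of all genes. None of them was called in another comparison.

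*Adm* and *Edn1* are known to respond to low oxygen, so 12 other genes of that response, *Vegfa* among them, were followed. Of 10 measured, none was at least 2-fold different between P1 and P2, against 0.957% of all genes higher and 4.23% lower. *Vegfa* had 94.1 FPKM in P1, 161 and 197 in P2 and P3, 93.5 and 142 in P4 and P5, and 14.7 in P6. Whether low oxygen had a part in the levels of *Adm* or *Edn1* was not tested. *Egln3* had 2.60 FPKM in P1 and 79.0 in P5, and *Slc2a1*, *Pgk1*, *Ldha*, *Bnip3*, *Ndrg1*, *P4ha1* and *Hilpda* were each within 2-fold between P1 and P2. *Egln3* was the 1 gene of 10 called in P2 over P3, in P2 over P4 and in P3 over P5. It was lower each time, against 2.56%, 7.63% and 6.29% of all genes. Of 11 measured in P6 against every other population, *Vegfa* was lower and *Car9* higher, against 4.63% and 6.25%. *Car9* passed the minimum only through P6.

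Genes with the most similar profile were found by the root mean square difference of log2 profiles, each centred on its own mean over the 6 populations, among 9789 other genes of at least 5 FPKM somewhere. The nearest gene to *Ace* was *Adm*, at 0.15 log2 units, and the nearest to *Adm* was *Ace*. After them came *1700019D03Rik* and *Ly6c2* for *Ace* and *Srpx2* and *Bmper* for *Adm*. *Edn1* lay closest to *Anxa3*, *Pcsk6* and *Lurap1l*, at 0.17 to 0.19, and *Agtr1a* to *Basp1*, *Adam23* and *Bmp6*, at 0.17 to 0.29. *Edn1* was the 19th nearest gene to *Agtr1a*. *Agt* lay closest to *Serpina3c*, *Peg3as* and *Cped1*, at 0.10 to 0.19. *Ramp2* lay closest to *Col15a1*, *Prrx2* and *Dclk1*, at 0.11 to 0.18, and *Calcrl* to *Foxf1*, *Rasa3* and *Jak3*, at 0.23. *Calcrl* was the 70th nearest to *Ramp2*, so the receptor and its partner were less alike than *Ace* and *Adm*.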

How the data were processed

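RNA from 6 sorted stromal populations was analyzed, with 1 library each and single-end reads of 76 nt. The authors deposited FPKM values per gene, and the submitters' processing notes name TopHat2 2.0.7, Cufflinks 2.1.1 and mm10, without their roles. Their annotation, their filters and how many mice were pooled are not given in the sources used here. The kit is not named as directional, so reads of *Ace*, *Edn1* and *Ednra* could include those of annotated antisense exons of 295, 35 and 91 shared bases.

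Of 23847 rows per file, 495 repeated a symbol and were summed. Values were not rescaled. Ratios were called at 2-fold after adding 0.1 FPKM, with at least 1 FPKM in a population compared. Depth came from the steps of low FPKM values in 3316 genes that GENCODE M21 gives 1 transcript, none shorter than 800 nt, assuming fragments of 200 nt. Among values of no more than 10 reads, 54.2% to 58.9% were whole to within 0.05 reads, where chance gives 10%. Estimated reads used the shortest RefSeq transcript, and ratio intervals were exact (Clopper-Pearson). Members and lists were chosen with earlier results of these data known. Named by rule were all members, list genes of at least 5 FPKM, and the 3 genes of nearest profile. Some list genes below 5 FPKM are named outside this rule, after their values were seen. The fold call was tested on simulated data. Scripts ran in Python 3.11.15 with pandas 2.3.3, scipy 1.17.1, numpy 2.4.6 and, for plots, matplotlib 3.10.9. Alternatives for scaling, pseudocount, minimum, fold and repeated symbols were tried. Some genes of these systems are not reported here.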

Additional observations from a re-analysis of the deposited data

Results flagged for a closer look

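For 3 members, the same step of a gate had opposite directions in 2 settings, each beyond counting error. The differences were not tested, since each population had 1 library. *Ednra* was at 0.860 for intermediate over low ALDH activity among CD105+ cells and at 2.33 among CD105- cells. *Calcrl* was at 0.761 and 1.10 in the same 2 comparisons. *Edn1* was at 0.730 for CD105+ over CD105- cells at intermediate ALDH activity and at 2.17 at low activity.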

How the results depend on the processing

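Of 126 counts of members under other settings, 121 stayed within 1.5 times of the reported count. The number higher in P2 than in P4 was 1 instead of 2 with a pseudocount of 1 and with a minimum of 5 FPKM, both without *Ednra*. The number lower in P6 than everywhere else was 3 instead of 5 with a pseudocount of 1, without *Agtr2* and *Calcrl*. The number higher in P4 than in P5 was 3 instead of 5 with a minimum of 5 FPKM, and at 1.5-fold 1 member, *Calcrl*, was lower in P1 than in P2. No called ratio of a member changed direction, and 18 lost and 6 gained the 2-fold call. These follow from the pseudocount, minimum or fold, except for *Ednra* in P4 over P5, at 0.94 on the log2 scale by quantile normalization, and *Calcrl* in P3 over P5, gained after division by *Gapdh*. Under median of ratios and *Gapdh*, *Ednra* stayed over 2-fold but its P4 value dropped below the minimum. Division by *Gapdh* moved the median log2 ratio of all genes to 0.39 for P2 over P4 and 0.45 for P3 over P5, from -0.08 and -0.09. Counts over all genes moved beyond 1.5 times in 47 of 126 settings. No paired analysis was possible because there was 1 library a population. Depth limits *Ednrb* and *Agtr2*, the members with the fewest reads.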
